A study of Mus musculus with 6 samples.

Results

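The miRNAs miR-155, miR-146a, miR-146b and miR-147 are induced in macrophages by Toll-like receptor signalling, and they were examined in bone marrow-derived macrophages that carried or lacked an intact Dicer gene. They were the 4 assays, of 596 miRNA assays in the table of threshold cycles (Ct), whose name without species prefix and assay number equalled one of these names. All 4 lay in the first of the 2 blocks of rows, each of which has its own 5 endogenous small RNA controls. The KO group (n = 3) came from LysM-Cre/Dicerflox/flox/Apoe-/- mice, in which Cre under the LysM promoter, active in the myeloid lineage, deletes the floxed Dicer gene. The WT group (n = 3) came from LysM-Cre/Dicerwt/wt/Apoe-/- mice, so both groups carried the Cre driver and lacked Apoe. All mice were male and aged 6 to 8 weeks, and the marrow cells had been cultured for 7 days with L929-conditioned medium, a source of macrophage colony-stimulating factor. The labels name no Toll-like receptor ligand, so the levels are those of cultures with no stated stimulus. How completely the floxed allele was lost was not measured here, since the panel is made of small RNA assays.

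Toll-like receptors sense microbial products and switch on NF-kB, which drives transcription of inflammatory genes and of several miRNA genes. miR-155 represses inhibitors of cytokine signalling such as Socs1 and Inpp5d and so amplifies the response, whereas miR-146a and miR-146b repress the adaptor proteins Irak1 and Traf6 and so dampen it. miR-147 is induced by the same receptors in mouse macrophages and limits cytokine output. Each is made as a hairpin that Dicer cuts into a short duplex, of which 1 strand is loaded into Argonaute.

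The hairpins that Dicer cuts are shown for the 3 miRNAs that were measured in every sample, with the strand usually loaded in capitals (RefSeq, GRCm38.p6, 5′ to 3′).
miR-155 hairpin, chr16:84714140-84714204, plus strand: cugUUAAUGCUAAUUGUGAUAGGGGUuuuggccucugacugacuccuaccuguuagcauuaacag
miR-146a hairpin, chr11:43374397-43374461, minus strand: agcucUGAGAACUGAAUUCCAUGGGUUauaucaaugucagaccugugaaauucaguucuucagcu
miR-146b hairpin, chr19:46342762-46342870, plus strand: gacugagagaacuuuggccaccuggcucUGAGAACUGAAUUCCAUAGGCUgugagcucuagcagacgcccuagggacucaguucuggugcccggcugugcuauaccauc

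The mature strands are shown next, with the seed, bases 2 to 8, in capitals, because the seed largely decides which mRNAs a miRNA can pair with.
miR-155: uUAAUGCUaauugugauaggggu
miR-146a: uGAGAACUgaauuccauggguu
miR-146b: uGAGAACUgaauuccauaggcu
miR-146b opposite strand: gCCCUAGGgacucaguucuggu

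miR-146a and miR-146b share the seed GAGAACU, which no other mature name among the 1679 in the table carries. Counted from the 5′ end with the miR-146a base first, the 2 strands differ at G18A and U21C and are identical at 20 of 22 positions. The seed UAAUGCU of miR-155 was found in miR-155 alone. By gene spans of the same annotation, the miR-155 hairpin lies in the non-coding gene Mir155hg, the miR-146b hairpin in the non-coding gene Gm36493, and that of miR-147 (chromosome 2, 122640803 to 122640881) in the protein-coding gene AA467197, also called Nmes1. No other gene span held the miR-146a hairpin.

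Ct falls by 1 for each doubling of template, and a well without amplification is listed at 40. Values are given as log2 abundance relative to the mean of the 5 controls of the block (U6, U87, Y1, snoRNA135 and snoRNA202), with Ct 35 as the ceiling of measurement. The mean control Ct of the first block was 22.8, 20.3 and 19.3 in KO replicates 1, 2 and 3, against 21.1, 20.6 and 19.1 in WT replicates 1, 2 and 3 (exact permutation p = 0.8, two-sided; the smallest possible p is 0.1). KO replicate 1 thus had the latest controls, and it had 219 miRNA assays below the ceiling, against 277 and 290 in the other KO samples and 307 to 309 in WT. The myeloid and haematopoietic miRNAs miR-223, miR-142-3p and miR-142-5p were measured in all 6 samples, at Ct 16.9 to 28.8 in KO and 15.04 to 25.7 in WT. Stromal miRNAs (miR-143, miR-145, miR-199a-3p and miR-214) were also measured in all 6, at Ct 23.6 to 31.8 in KO and 22.6 to 29.6 in WT. Relative to the controls these 4 were at -9.92, -8.78, -10.5 and -9.89 in WT replicate 3, the lowest of the 6 samples each time. They were at -5.92 to -1.51 in WT replicates 1 and 2 and at -8.99 to -4.23 in KO. The lymphocyte miRNA miR-150 was measured at Ct 26.6 to 30.4 in KO and 26.0 to 28.6 in WT. The erythroid miRNA miR-451 was below the ceiling in 2 of 3 KO samples and 1 of 3 WT samples. Of the endothelial miRNAs miR-126-3p and miR-126-5p, 1 of 2 was measured in all KO samples and both in all WT samples, and of the epithelial miRNAs miR-200a, miR-200b, miR-200c and miR-141, 3 of 4 in all KO samples and 4 of 4 in all WT samples. The part of other cell types in the results was not tested. In such bulk cultures fewer expressing cells and less miRNA per cell cannot be told apart.

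The order of the assays was the same in both groups: miR-146a was earliest and was followed by miR-146b, miR-155 and miR-147. In KO the mean Ct was 20.7 ± 3.45 for miR-146a, 25.4 ± 3.28 for miR-146b and 28.5 ± 3.71 for miR-155 (SD, n = 3), and miR-147 was measured in 1 of 3 samples. In WT the mean Ct was 18.1 ± 1.06 for miR-146a, 22.8 ± 0.79 for miR-146b, 26.0 ± 1.37 for miR-155 and 30.7 ± 2.33 for miR-147 (SD, n = 3). Relative to the controls the WT ranges of the 4 assays did not overlap, whereas the KO ranges of miR-146b and miR-155 did. Different assays can amplify with different efficiency, so this order is one of Ct and not of molecules.

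miR-155, the amplifier of the response, was variable between KO cultures. Its Ct was 32.5, 27.9 and 25.1 in KO replicates 1, 2 and 3, against 26.4, 27.1 and 24.5 in WT replicates 1, 2 and 3. Relative to the controls the log2 abundance was -9.64, -7.67 and -5.78 in KO, against -5.34, -6.59 and -5.38 in WT. KO replicates 1 and 2 lay below all WT samples, but KO replicate 3 lay above WT replicate 2, so the groups overlapped. The mean difference was -1.93 ± 1.01 (SE), with a 95% interval from -4.33 to 0.48, and did not pass the test (limma, adjusted p = 0.155).

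miR-146a, the feedback inhibitor, was nearly constant in WT and spread widely in KO. Its Ct was 24.5, 19.7 and 17.8 in KO, against 19.0, 18.5 and 16.9 in WT. The log2 relative abundance was -1.68, 0.53 and 1.53 in KO, against 2.10, 2.06 and 2.16 in WT. The highest KO sample lay below the lowest WT sample, as it did for 59.9% of the 282 tested assays. The mean difference was -1.98 ± 0.85 (SE), with a 95% interval from -4.00 to 0.04, and did not pass (limma, adjusted p = 0.0985).

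miR-146b, which shares the seed of miR-146a, gave almost the same picture at a later Ct. Its Ct was 29.0, 24.7 and 22.5 in KO, against 23.52, 23.02 and 21.97 in WT. The log2 relative abundance was -6.14, -4.42 and -3.20 in KO, against -2.46, -2.46 and -2.86 in WT, again without overlap. The mean difference was -1.99 ± 0.80 (SE), with a 95% interval from -3.89 to -0.10 before adjustment, and did not pass after adjustment over all assays (limma, adjusted p = 0.0795).

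**Figure D1:**
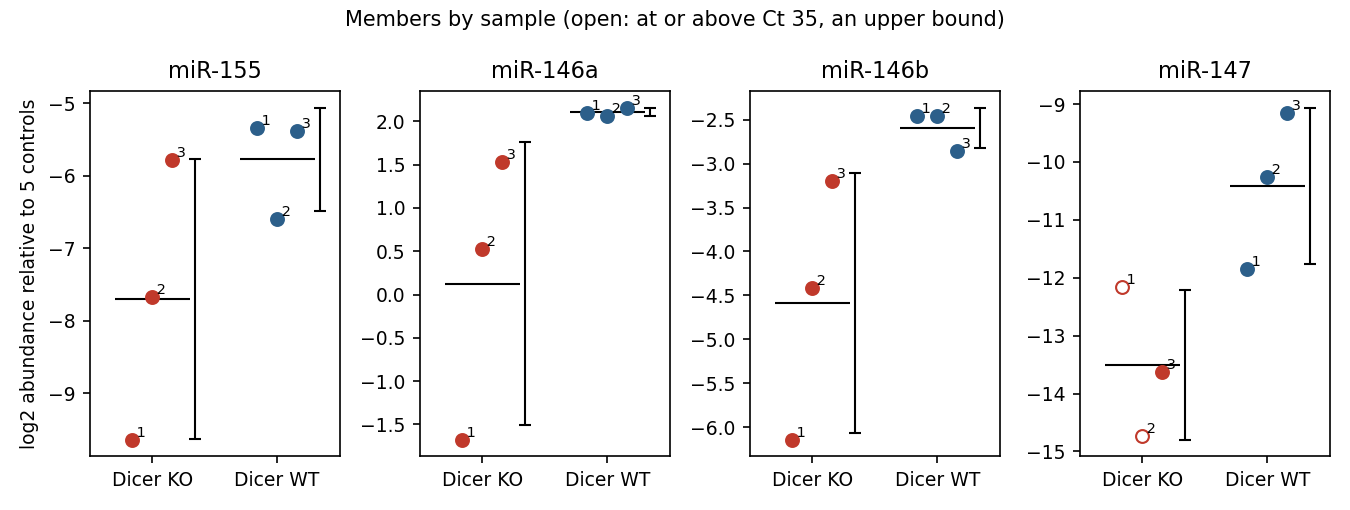
Log2 abundance relative to the 5 controls (y axis, a separate scale in each panel) of the 4 miRNAs in 3 KO and 3 WT samples. Points are samples with their replicate number, lines are means and bars are SD; open points are wells at or above Ct 35 and are upper bounds. KO replicate 1 is lowest and KO replicate 3 highest for miR-155, miR-146a and miR-146b.

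miR-147 was the latest of the 4 assays and was below the limit of measurement in 2 of 3 KO samples. It did not amplify (Ct 40) in KO replicates 1 and 2 and had a Ct of 32.96 in KO replicate 3, against 32.91, 30.81 and 28.26 in WT. With wells at 40 set to the ceiling, the log2 relative abundance was at most -12.2 and -14.7 in KO replicates 1 and 2 and was -13.6 in KO replicate 3, against -11.8, -10.3 and -9.15 in WT. It was at least 8.52-fold lower in KO (log2 -3.09 ± 0.94, SE; limma, adjusted p = 0.0443, and 0.0759 with the replicate block), provided that a well at Ct 40 stands for a true absence and not a failed reaction. It entered the test through WT, where all 3 samples were below the ceiling, and 37.2% of the 282 tested assays were called lower in KO by the same test (41.8% with the block). The values of KO replicates 1 and 2 are the ceiling set against the controls. The SE and p thus do not measure how miR-147 varied between KO samples. This limit holds for every fit of miR-147 given here. The bound of KO replicate 1 is loose: at -12.2 it lies above the value measured in KO replicate 3 and 0.32 below WT replicate 1. With 1 common floor for all samples of the block, set by KO replicate 1, the difference was -1.75 (adjusted p = 0.103), and with a ceiling of 33 it was -1.76 (adjusted p = 0.199).

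The opposite strand of the miR-146b hairpin, assayed in the second block, varied in the same samples. It did not amplify in KO replicates 1 and 2 and had a Ct of 29.1 in KO replicate 3, against 28.5, 30.3 and 27.9 in WT. KO replicate 3, at -9.78 on the log2 relative scale, lay above WT replicate 2 at -11.0. The difference was -3.68 ± 1.60 (SE; limma, adjusted p = 0.0994), an upper bound. This strand entered the test through WT alone, and its values in KO replicates 1 and 2 are the ceiling set against the controls. The SE and p thus do not measure how it varied between KO samples.

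The size of the KO difference depended on the culture. Set against the mean of the 3 WT samples, miR-146a was 13.8-fold lower in KO replicate 1, 2.99-fold lower in KO replicate 2 and 1.49-fold lower in KO replicate 3. miR-146b was 11.7-fold, 3.54-fold and 1.52-fold lower in the same samples. miR-155 was 14.6-fold lower in KO replicate 1 and 3.73-fold lower in KO replicate 2, and KO replicate 3 was at the WT mean (1.01-fold lower). The median of all tested assays was 4.90-fold, 3.13-fold and 2.68-fold lower in these samples. The 3 miRNAs were therefore further below WT than the median assay in KO replicate 1 and nearer to WT than the median assay in KO replicate 3. KO replicate 1 is also the sample with the latest controls and the fewest measured assays, and the part of the amount of RNA in this spread was not tested.

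**Figure D2:**
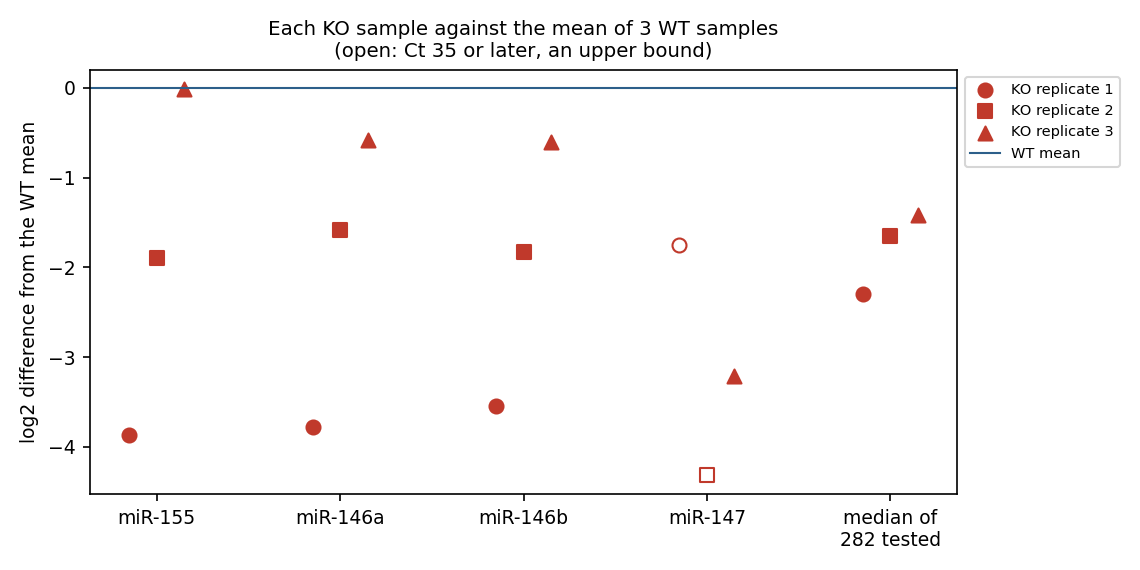
Log2 difference of each KO sample from the mean of the 3 WT samples (y axis) for the 4 miRNAs and for the median of all 282 tested assays. The 3 KO samples of miR-155 span -3.87 to -0.01, whereas those of the median assay span -2.29 to -1.42; open points are upper bounds.

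Taken by replicate number, KO was lower than WT in all 3 pairs for miR-155, miR-146a and miR-146b, as it was for 72.3% of tested assays. The difference of miR-155 was -4.30, -1.08 and -0.40 in replicates 1, 2 and 3. That of miR-146a was -3.78, -1.53 and -0.63, and that of miR-146b was -3.68, -1.95 and -0.34. For miR-147 the differences were at most -0.32 and -4.48 in replicates 1 and 2, where KO did not amplify, and -4.48 in replicate 3. The measured difference of miR-147 in replicate 3 thus stood beside differences under 1 log2 unit for the other miRNAs in that pair.

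The calls changed with single samples. Without KO replicate 3 the test was passed by miR-155 at -2.88 (limma, adjusted p = 0.0435), by miR-146a at -2.68 (adjusted p = 0.0458) and by miR-146b at -2.69 (adjusted p = 0.038), and 39.3% of assays were then called lower. Without KO replicate 1 the differences shrank to -0.96 for miR-155 (adjusted p = 0.368), -1.08 for miR-146a (adjusted p = 0.113) and -1.22 for miR-146b (adjusted p = 0.115), with 34.5% of assays called lower. miR-147 kept its call without KO replicate 1 (-3.76, limma, adjusted p = 0.0381) and lost it without KO replicate 3 (-3.03, adjusted p = 0.0618). It lost the call without KO replicate 2 (-2.48, limma, adjusted p = 0.0982), where 1.06% of all assays were called lower. It also lost the call without WT replicate 1, 2 or 3 (adjusted p = 0.111, 0.123 and 0.107), where 0.692%, 0.685% and 0.687% of all assays were called lower.

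The mean differences of the 3 miRNAs measured in all samples were close to the middle of the panel. The median difference over the 282 tested assays was -1.91, and counted from the lowest, miR-146b, miR-146a and miR-155 held ranks 131, 134 and 139, while miR-147 held rank 37 as a bound. Relative to the global mean of the miRNAs measured in all samples, which removes a shift common to the panel, the differences were -0.04 for miR-155, -0.09 for miR-146a, -0.11 for miR-146b and -1.20 for miR-147 (limma, adjusted p from 0.636 to 0.982). By that scale 0.709% of assays were called lower.

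**Figure D3:**
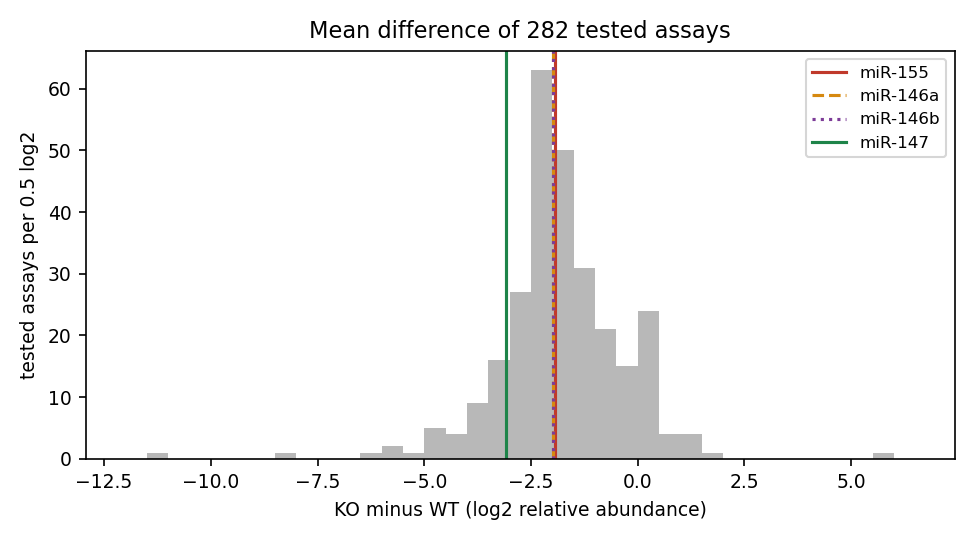
Histogram of the mean difference, KO minus WT, of 282 tested assays (x axis, log2 relative abundance; y axis, assays per bin of 0.5). The lines of miR-155 (-1.93), miR-146a (-1.98) and miR-146b (-1.99) fall together near the median of -1.91, and miR-147 lies at -3.09.

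Their spread between KO samples was wider than that of the median assay, and for miR-146a and miR-146b the spread between WT samples was narrower. Across the 201 assays measured in all 6 samples, the median SD was 0.83 in KO and 0.50 in WT (log2). The SD of miR-155 was 1.93 in KO and 0.71 in WT, and 8 of the 201 assays had a larger SD in KO. That of miR-146a was 1.64 in KO and 0.05 in WT, where 13 assays had a larger SD in KO and 196 a larger one in WT. That of miR-146b was 1.48 in KO and 0.23 in WT, with 22 assays of larger SD in KO. With 3 samples per group these SDs are imprecise, and no test was made of them.

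**Figure D4:**
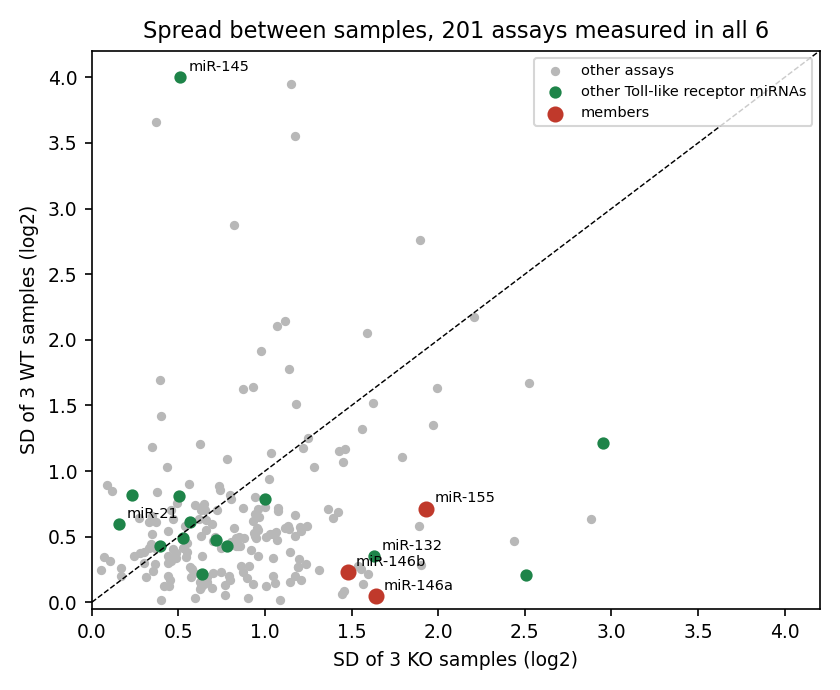
SD of the 3 KO samples (x axis) against SD of the 3 WT samples (y axis), in log2 units, for 201 assays measured in all 6 samples; the dashed line marks equal SD. miR-155, miR-146a and miR-146b (red) lie right of the median KO SD of 0.83, and miR-146a has a WT SD of 0.05.

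Within a sample, the distances between miR-146a, miR-146b and miR-155 were close to each other in KO and WT. miR-146a exceeded miR-146b by 4.47, 4.95 and 4.73 log2 units in KO, against 4.56, 4.53 and 5.02 in WT. The mean gap was 4.71 ± 0.24 in KO and 4.70 ± 0.28 in WT (SD, n = 3; exact permutation p = 1, two-sided, adjusted p = 1 over 3 pairs). miR-146a exceeded miR-155 by 7.82 ± 0.46 in KO and 7.88 ± 0.68 in WT (SD, n = 3; exact permutation p = 0.9, adjusted p = 1). miR-146b exceeded miR-155 by 3.11 ± 0.47 in KO and 3.18 ± 0.84 in WT (SD, n = 3; exact permutation p = 1, adjusted p = 1). The gap between the seed-sharing strands thus varied over 0.55 log2 units in all 6 samples, while miR-146a itself varied over 3.83. Whether the assay of either strand also reads the other, which differs at 2 bases near the 3′ end, was not tested. With 3 samples against 3, none of these tests could give a p under 0.1.

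The profiles most like them were found by Pearson correlation over the 6 samples among the 200 other assays measured in all of them. For miR-146a these were miR-374-5p (r = 0.993), miR-26a (r = 0.991) and miR-146b (r = 0.988), beside a median r of 0.787. For miR-146b they were miR-26a (r = 0.992), miR-146a (r = 0.988) and miR-185 (r = 0.982), beside a median of 0.804. For miR-155 they were the passenger strands miR-125b# (r = 0.984) and miR-322# (r = 0.969) and then miR-132 (r = 0.956), beside a median of 0.669. The points share the samples, the controls and the common KO shift, and the order with KO replicate 1 lowest and KO replicate 3 highest of the KO samples was seen in 42.3% of the 201 assays. These correlations are descriptions of 6 samples.

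Other miRNAs linked to Toll-like receptor signalling were set beside them as a list of 18. miR-187 did not amplify in any sample, and 17 were tested, of which miR-98, miR-9 and miR-212 entered through WT alone. In the test 8 of the 17 (47.1%) were lower in KO and 0 higher, beside 37.2% lower and 0.355% higher among all tested assays (9 of 17 with the replicate block, beside 41.8%), and the list's median was -2.21, beside -1.91. Among those measured in all 6 samples and adjusted over such assays alone, 10 of 14 were lower, beside 56.7% of the 201.

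The list's miRNAs that passed and were measured in all samples had KO ranges of 0.30 to 1.53 log2 units. miR-21, which represses the pro-inflammatory tumour suppressor Pdcd4, fell 4.64-fold (limma, adjusted p = 0.0312), and its KO samples ranged over 0.30 log2 units. let-7i, which targets the receptor TLR4 in human cells, fell 5.94-fold (adjusted p = 0.0312) with a KO range of 1.21. miR-27b fell 4.41-fold (adjusted p = 0.0312; KO range 0.73) and miR-29b 5.14-fold (adjusted p = 0.034; KO range 0.95). miR-221, a repressor of the cell cycle inhibitor Cdkn1b, fell 4.67-fold (adjusted p = 0.034; KO range 1.53). miR-223, a regulator of myeloid development, fell 3.75-fold (adjusted p = 0.0445; KO range 0.99), and miR-181c fell 3.44-fold (adjusted p = 0.0456; KO range 0.93). miR-98, a let-7 family member, did not amplify in KO and entered the test through WT alone. By the ceiling it is at least 2209-fold lower (limma, adjusted p = 0.00222). This holds if a well at Ct 40 stands for a true absence and not a failed reaction. Its KO values are the ceiling set against the controls, so their spread is that of the controls. The p thus does not measure how miR-98 varied between KO samples, although miR-98 is counted among the 8 called lower.

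The KO ranges of miR-146b, miR-146a and miR-155 were wider, at 2.94, 3.20 and 3.86 log2 units. A narrow range favours passing the test, so ranges and calls are not independent. Of the list's miRNAs measured in all samples that did not pass, miR-125b-5p, miR-145, let-7e and miR-222 had KO ranges of 0.42 to 1.80, and miR-132, miR-511 and miR-125a-5p had KO ranges of 3.13 to 5.24. miR-222, at -1.59 ± 0.72 (SE; limma, adjusted p = 0.109), did pass with the replicate block (adjusted p = 0.0431). miR-132, which like miR-212 comes from a CREB-regulated transcript, was among the profiles most like miR-155. Its log2 relative abundance was -6.13, -5.32 and -2.99 in KO, against -2.51, -2.94 and -2.25 in WT (difference -2.25 ± 0.86, SE; limma, adjusted p = 0.0718). miR-212 did not amplify in KO replicate 1 and was at -8.71 and -6.04 in KO replicates 2 and 3, against -5.48, -7.69 and -5.40 in WT (difference -3.01 or lower; adjusted p = 0.169). miR-511, a miRNA of the macrophage mannose receptor gene Mrc1, was at -10.1, -5.85 and -5.74 in KO, against -4.23, -3.90 and -4.30 in WT (difference -3.10 ± 1.20, SE; limma, adjusted p = 0.0728). All its KO samples lay below all WT samples, as for 59.9% of tested assays, and KO replicate 1 lay furthest below. miR-145, a smooth muscle miRNA that targets the adaptor Tirap, was at -5.12, -5.09 and -4.23 in KO, against -1.51, -2.24 and -8.78 in WT (limma, adjusted p = 0.804). WT replicate 3 stood apart here, as it did for the stromal miRNAs miR-143, miR-199a-3p and miR-214.

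**Figure D5:**
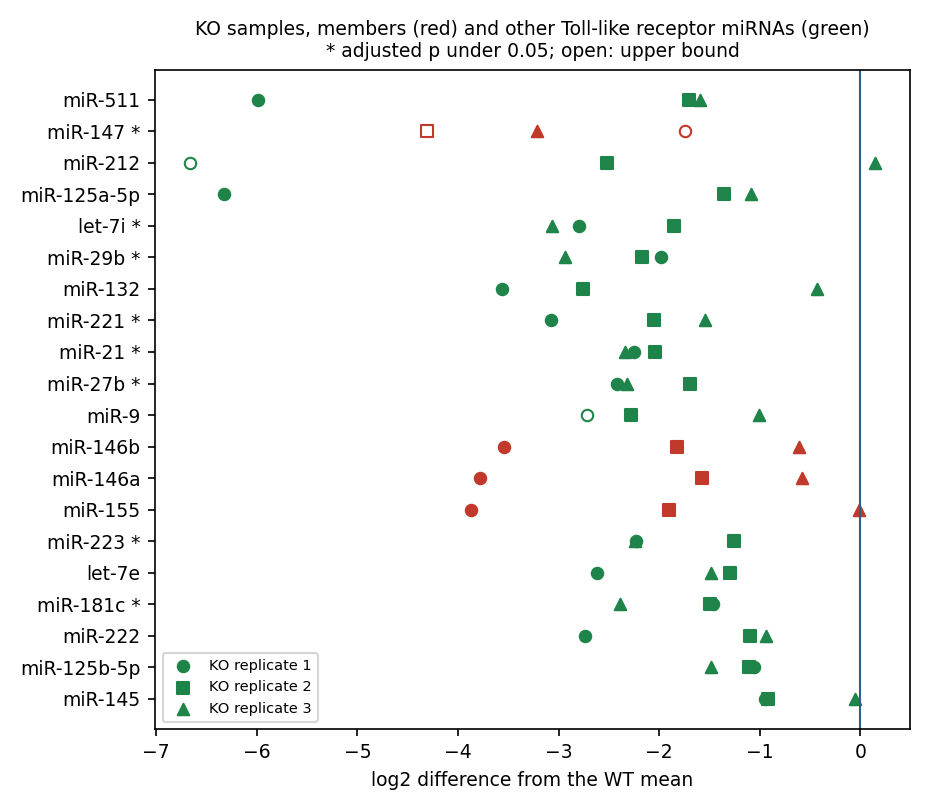
Log2 difference of each KO sample from the mean of the 3 WT samples (x axis) for the 4 miRNAs (red) and 16 of the 17 tested list miRNAs (green; miR-98, which did not amplify in KO, is left out), ordered by mean difference. Open symbols are upper bounds and asterisks mark adjusted p under 0.05; miR-21 spans 0.30 log2 units over the KO samples and miR-155 spans 3.86.

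In the authors' deposited table the fold of KO over WT was 0.413 for miR-155, 0.365 for miR-146a, 0.345 for miR-146b and 0.0309 for miR-147. These deposited folds are ratios of arithmetic means, in which the highest KO sample weighs most, and wells at Ct 40 entered the deposited value of miR-147 as numbers.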

How the data were processed

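Per the labels' protocols, total RNA (mirVana kit) was converted to cDNA and preamplified with TaqMan reagents; instrument and software are not given in the sources used here. Deposited were Ct scores, relative quantities (each a ratio to WT) and fold changes of KO over WT. For the 4 miRNAs the deposited ratio equals 2 to the power of minus the Ct, scaled to 3 controls of the block (U6, snoRNA135, snoRNA202) and to the geometric mean of WT.

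Here each Ct, capped at 35, was subtracted from the mean of the 5 controls of its block. Assays below 35 in all 3 samples of at least 1 group (282) entered limma 3.58.1 (R 4.3.3; genotype alone, two-sided, Benjamini-Hochberg, threshold 0.05); 220 were at 40 in all 6 samples. The fit was tested on simulated data, of which no result is given here, so that run adds no support to the calls. Figures used matplotlib 3.10.9. The number of samples, 3 per group, limits the precision.

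The miRNAs and lists were chosen with earlier results of these data known. Named were the 4 miRNAs, the other strands of their hairpins, for each one measured in all samples the 3 assays of highest correlation, and of the Toll-like receptor list those that passed and the 2 with the largest p; miR-132 was named as a like profile, and miR-511, miR-125a-5p, miR-125b-5p, let-7e and miR-222 were named after their values were seen.

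KO and WT share replicate numbers. Across assays, deviations from the group mean correlated at 0.23, 0.28 and 0.27 for equal numbers and at -0.28 to 0.01 for unequal ones. Equal numbers were therefore treated as pairs in the differences by replicate number and in an alternative fit with a replicate block. No label states what a number marks. The main limma fit and the exact permutation tests did not use the pairs. Their SEs, intervals and p-values thus leave the shared deviations out of account. The blocked value is printed where it changes the call of a named miRNA. Alternatives were other ceilings, references, filters, the deposited ratios and leaving out each sample.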

Additional observations from a re-analysis of the deposited data

How the results depend on the processing

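miR-155, miR-146a, miR-146b and miR-147 had negative differences, KO minus WT, under every alternative that gave a value; miR-147 gave none when assays had to be measured in all 6 samples. With the replicate block miR-147 stayed at -3.09 and no longer passed (adjusted p = 0.0759), and the block changed no other call among the 4; in the list it added miR-222 (adjusted p = 0.0431) and changed no other call. It lost its call also at -1.76 (ceiling 33), -1.75 (floor set after scaling), -1.20 (global mean), -3.66 (no reference) and -3.09 (no filter, more assays tested). It was at -5.09 and -6.42 with ceilings of 38 and 40, where wells without amplification count as later cycles. It kept its call at these ceilings (limma, adjusted p = 0.0366 and 0.0419), where 32.3% and 27.5% of assays were called lower. It also kept its call with 3 controls, U6 alone and the deposited ratios (limma, adjusted p = 0.0458, 0.0396 and 0.0396). By these settings 39.7%, 41.5% and 28% of assays were called lower. miR-146b passed, at -1.99 (limma, adjusted p = 0.0432), when only assays measured in all 6 samples were tested. By that setting 56.7% of the 201 assays were called lower.

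Leaving out each sample gave -2.88 to -0.96 for miR-155, -2.68 to -1.08 for miR-146a, -2.69 to -1.22 for miR-146b and -3.80 to -2.46 for miR-147. The number of assays lower in KO ranged over 2 to 112 and the number higher over 1 to 3, beside 105 and 1. For the Toll-like receptor list 1 to 9 were lower and the median was -2.37 to -1.65. With the global mean, no reference or no filter, 2 assays were lower each time, and 1 of the list. With the global mean the list's median was -0.33. With no reference 0 were higher (limma; 42 had an unadjusted p under 0.05 in either direction), and with ceilings of 38 and 33 or U6 alone 2 were. With the authors' deposited ratios 5 of the 17 tested of the list were lower, beside 28% of all tested assays. The cause of these shifts was not tested. Ct values at the ceiling limit what can be said of miR-147 and of the opposite strand of miR-146b.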
